A study of Mus musculus with 6 samples.

Results

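The 10 cathepsins Ctsa, Ctsb, Ctsc, Ctsd, Ctse, Ctsh, Ctsk, Ctsl, Ctss and Ctsz were examined in the microglia of mice that carried 1 or 2 null alleles of Bhlhe41. Every probe whose transcript accession led to one of these symbols was taken, whatever its signal, which gave 15 of the 56605 probes on the array. All 10 genes had a probe. Ctsa, Ctsb, Ctsd, Ctse, Ctsk, Ctss and Ctsz had 1 probe each, Ctsl had 2, and Ctsc and Ctsh had 3 each.

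The control group was Bhlhe41 dTomato-Cre/+ (B41HET, 3 samples) and the knockout group was Bhlhe41 dTomato-Cre/dTomato-Cre (B41KO, 3 samples). Bhlhe41 encodes a basic helix-loop-helix repressor of transcription, and the dTomato-Cre allele places a red reporter and Cre recombinase in that gene. Both groups therefore carried the cassette, and no group with 2 wild-type alleles was measured. The mice were young (3 months old), and live CD45low CD11b+ Cx3cr1+ cells were sorted from Percoll-enriched brain cells, a gate for microglia, the resident macrophages of the brain. Each sample was hybridised to 1 single-colour array. The labels speak of 3 mice per genotype, whereas the methods describe several mice pooled into each sample. The p-values measure only the spread between these 6 samples.

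Cathepsins are the main proteases of lysosomes and endosomes. Most are made as inactive precursors, are carried to the lysosome by mannose 6-phosphate receptors or sortilin, and become active when the propeptide is removed in the acid compartment. Microglia use them to digest engulfed material, to process antigens and the invariant chain, and to trim endosomal receptors, while cystatins, stefins and some serpins hold their activity in check.

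On each array 70.1% to 75.5% of the probes were well above background, and no cathepsin spot was saturated. Correlations between arrays were 0.989 to 0.993 within a genotype and 0.985 to 0.989 between genotypes. The 9 microglia markers reported, Tmem119 and P2ry12 among them, were above background on all 6 arrays. On the brightest probe of each gene, 4.01% of all genes were called lower and 1.44% higher (adjusted p of 0.05 or less and a log2 difference of at least 0.5). Of the microglia markers 1, Fcrls, was called lower (log2 difference −0.76, adjusted p = 0.00581, limma). Of 10 neutrophil markers 8 were called lower in B41KO, with a summed level of 14.89 to 15.06 (log2) in B41HET and 12.49 to 12.61 in B41KO, and 3 of 6 monocyte, 5 of 8 border macrophage and 2 of 7 dendritic cell markers were called lower too. Of 5 erythroid markers 2 were called higher, Hbb-bt (log2 difference 1.36) and Alas2 (0.55), and the summed level was 14.96 to 15.06 in B41HET and 15.30 to 15.36 in B41KO. In bulk RNA, fewer cells of a type and less RNA per cell cannot be told apart. The Bhlhe41 transcript was not lower in B41KO (log2 difference 0.38, adjusted p = 0.330, and 0.33, adjusted p = 0.203, limma, on its 2 probes). Whether these probes read a transcript of the reporter allele was not tested, so the values do not check the labels.

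Bhlhe41 binds the E-box CACGTG, and the MiT/TFE factors that drive lysosomal genes prefer TCACGTG, so the cathepsin promoters were read for both. RefSeq (GRCm38.p6) gave 8 windows, from 250 bases before to 50 after the transcript start, for 7 of the 10 genes, all but Ctsb, Ctse and Ctsh. CACGTG was present in 3 of these 7 genes, Ctsa, Ctsd and Ctsl, against 8.09% of the 27025 genes with such a window. The matches before the start are printed with the CACGTG in capitals, because Bhlhe41 is the factor that was removed.

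Ctsa, chr2:164833734-164833772, + strand: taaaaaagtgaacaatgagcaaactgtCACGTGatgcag

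Ctsd, chr7:142388040-142388077, − strand: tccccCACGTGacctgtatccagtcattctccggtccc

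Ctsd, chr7:142387893-142387952, − strand: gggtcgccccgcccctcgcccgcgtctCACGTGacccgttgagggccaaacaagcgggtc

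Ctsl, chr13:64370724-64370770, − strand: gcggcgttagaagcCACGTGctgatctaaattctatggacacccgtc

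The first base of the motif lay at −12 in Ctsa, at −245 and −98 in Ctsd, and at −236 in Ctsl, counted from the start. Both Ctsa matches, this one and another at 6 after the start, were in 1 of its 2 windows. The longer TCACGTG, which contains the shorter motif, was found on either strand in Ctsa and Ctsd but not in Ctsl, against 4.29% of all genes. GAGGAA on either strand, a core that the myeloid factor PU.1 can bind, occurred in Ctsc, Ctsk and Ctss, against 31.3% of all genes. These matches describe the letters of the windows and are no evidence of binding.

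None of the 15 cathepsin probes passed the call that was used for all probes, an adjusted p of 0.05 or less (limma, Benjamini-Hochberg over 56601 probes) with a log2 difference of at least 0.5. Of all probes 5.07% were called, 1.72% higher and 3.34% lower in B41KO, a share at which under 1 of 15 would be counted, so the 0 says nothing particular to the cathepsins. At an unadjusted p under 0.05, 5 of the 15 probes passed, those of Ctsa and Ctse, both of Ctsl and 1 of Ctsh, against 23% of all probes. At an adjusted p of 0.05 or less without regard to fold, 1 of 15 passed, that of Ctsa, against 6.73% of all probes. The median absolute log2 difference was 0.189 over the cathepsin probes and 0.189 over all probes. An exact permutation test of a single probe cannot go below p = 0.1 with 3 samples against 3.

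The genotypes did not overlap on 9 of the 15 probes, 5 higher and 4 lower in B41KO, against 29.7% of all probes. All 6 arrays measured 13 of the cathepsin probes well above background, and of these 7 did not overlap, against 37.4% of all probes so measured. Of these 13 probes, 9 had a 95% interval that held 0, and on 10 the whole interval lay between −0.5 and 0.5. The intervals of the remaining 3, those of Ctsa, Ctsb and 1 probe of Ctsl, reached past 0.5, the highest to 0.67 or a 1.59-fold higher signal. No interval among the 13 went lower than −0.48, a 1.40-fold lower signal.

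**Figure D1:**
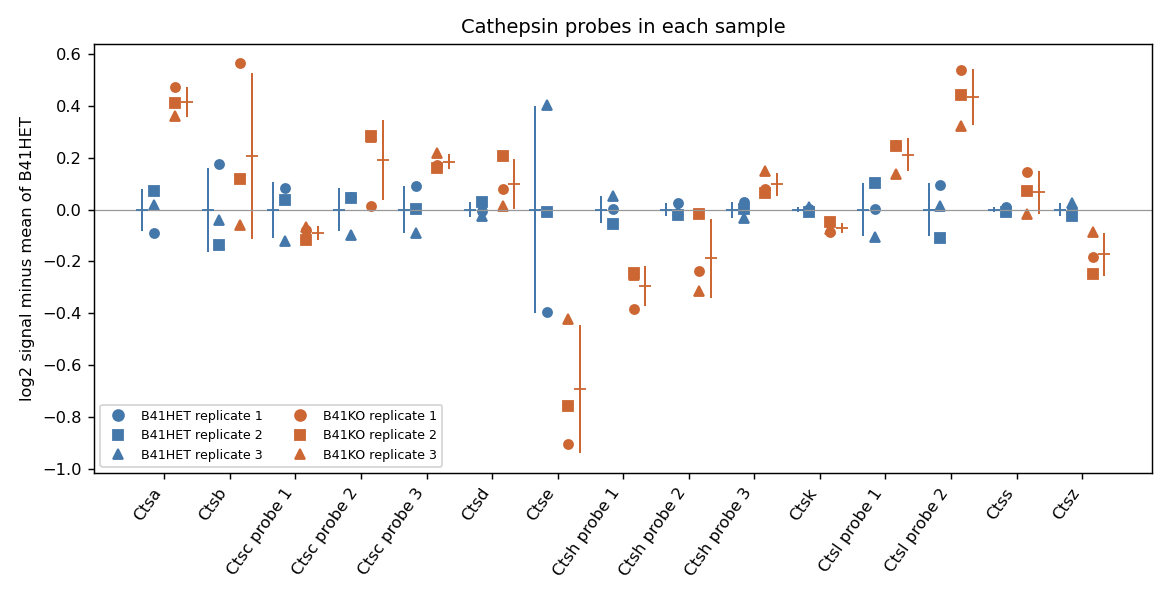
Signal of each of the 15 cathepsin probes in the 3 B41HET and 3 B41KO samples, as the log2 difference from the B41HET mean (points are samples, bars are genotype mean ± SD, n = 3, and probes of 1 gene are numbered from the brightest). The 3 B41KO samples lie above the controls for Ctsa and both Ctsl probes and below them for Ctsh probe 1 and Ctsz, while the Ctsb and Ctss samples overlap.

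The serine carboxypeptidase cathepsin A, which trims peptides and shields β-galactosidase and neuraminidase in the lysosome, came nearest to a call. The Ctsa probe (A_55_P1955841) read 11.71, 11.87 and 11.81 (log2 signal) in B41HET and 12.27, 12.21 and 12.15 in B41KO. All 3 B41KO samples were above all 3 B41HET samples, with a gap of 0.29 between the groups. The means were 11.79 ± 0.08 and 12.21 ± 0.06 (SD, n = 3 each), a difference of 0.42 with an SE of 0.08. This was 1.33-fold (95% interval 1.17 to 1.52), and limma's adjusted p was 0.0389. The adjusted p passed and the fold did not. With any 1 sample left out the difference was 0.37 to 0.45, and the adjusted p rose to 0.0816 to 0.112.

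Cathepsin L is an endopeptidase that shares many substrates with cathepsins B and S and processes other proteases, cathepsin D among them. Its brighter probe (A_66_P130532) read 8.24, 8.34 and 8.13 in B41HET and 8.49, 8.48 and 8.38 in B41KO. The other probe (A_51_P253547), printed at 10 spots per array, read 7.27, 7.07 and 7.19 in B41HET and 7.72, 7.62 and 7.50 in B41KO. On both probes every B41KO sample was above every B41HET sample, by a gap of 0.04 and 0.23. The differences were 0.21 (adjusted p = 0.214) and 0.44 (SE 0.09, adjusted p = 0.0548), and neither passed in limma. On the second probe the spots of 1 array spread with an SD of 0.11 to 0.22, and 4 outlier spots were left out over the 6 arrays. The mean over the 2 probes differed by 0.32 (adjusted p = 0.0736).

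Cathepsin B, the abundant endopeptidase and carboxydipeptidase of macrophage lysosomes, had the widest spread of the bright probes. Its probe (A_55_P2910387) read 12.42, 12.10 and 12.20 in B41HET and 12.81, 12.36 and 12.18 in B41KO. The high mean in B41KO came from replicate 1, and replicates 2 and 3 lay inside the B41HET range. The difference was 0.21 with an SE of 0.18 (adjusted p = 0.575), and the 95% interval of the fold, 0.843 to 1.58, holds both a decrease and an increase. Without B41KO replicate 1 it was 0.03.

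Cathepsin S, a cysteine protease that stays active at neutral pH and cleaves the invariant chain in antigen-presenting cells, differed little. The Ctss probe (A_51_P423981) read 13.88, 13.85 and 13.87 in B41HET and 14.01, 13.94 and 13.85 in B41KO. The groups overlapped, because B41KO replicate 3 was level with the controls. The difference was 0.07 (95% interval −0.12 to 0.25, adjusted p = 0.656) and its sign turned (−0.0060) with normexp on the median signals.

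Cathepsin Z, a carboxypeptidase also called cathepsin X, had lower values in B41KO. The Ctsz probe (A_51_P256202) read 15.33, 15.30 and 15.35 in B41HET and 15.14, 15.08 and 15.24 in B41KO. The groups were apart by 0.06. The difference of −0.17 (95% interval −0.36 to 0.01) had an adjusted p of 0.239.

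Cathepsin C, or dipeptidyl peptidase 1, activates the serine proteases of neutrophil granules, and its 3 probes differed in direction. The first, A_65_P05835, read 11.31, 11.26 and 11.10 in B41HET and 11.15, 11.11 and 11.16 in B41KO, a difference of −0.09 (adjusted p = 0.590). The second, A_52_P195839, read 8.88, 8.87 and 8.73 against 8.84, 9.11 and 9.11, a difference of 0.19 (adjusted p = 0.350). The genotypes overlapped on both of these. Probe A_55_P2072005 read 8.16, 8.07 and 7.98 against 8.24, 8.23 and 8.28, and there the groups were apart by 0.07, with a difference of 0.18 (adjusted p = 0.227). Probes A_65_P05835 and A_55_P2072005 were assigned to the same RefSeq transcript and A_52_P195839 to another, so probes of the same transcript differed in direction. The mean over all 3 Ctsc probes differed by 0.10.

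Cathepsin H is an aminopeptidase, and its 3 probes, all assigned to 1 transcript, disagreed as well. Probe A_51_P277792 read 12.55, 12.50 and 12.60 in B41HET and 12.17, 12.31 and 12.30 in B41KO. All B41KO samples were lower, by a gap of 0.19, and the difference of −0.29 (SE 0.08) had an adjusted p of 0.0850. Probe A_66_P124326 read 11.90, 11.85 and 11.87 against 11.63, 11.85 and 11.56, a difference of −0.19 (adjusted p = 0.320), with replicate 2 of B41KO level with the controls. Probe A_52_P51078 read 10.43, 10.40 and 10.37 against 10.48, 10.47 and 10.55, so that every B41KO sample was higher, by a gap of 0.03 (difference 0.10, adjusted p = 0.461). Probes A_51_P277792 and A_52_P51078 therefore separated the same samples in opposite directions, 0.39 apart, and neither passed the test. Of the markers, 8 of 10 of neutrophils, 3 of 6 of monocytes and 5 of 8 of border macrophages were called lower in B41KO. This was the direction of the 2 brighter Ctsh probes and the opposite of the dimmest. The part of such cells in the values of Ctsh, or of any other cathepsin, was not tested.

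**Figure D2:**
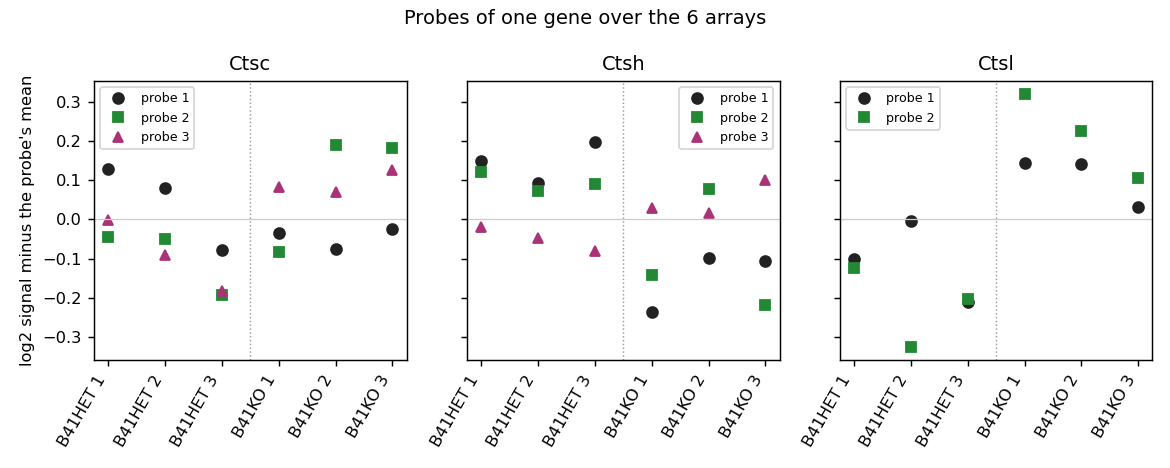
Log2 signal of each probe of Ctsc, Ctsh and Ctsl in the 3 B41HET and 3 B41KO samples, centred on the probe's mean over the 6 samples (points are samples, probes are numbered from the brightest). Both Ctsl probes lie higher in B41KO, whereas the probes of Ctsc and of Ctsh differ in direction.

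Cathepsin K, the collagenase of osteoclasts, was measured on no array, its signal being not well above background in either genotype. Its probe (A_55_P1961335) read 0.72 to 0.74 in B41HET and 0.64 to 0.68 in B41KO, and no fold is given here. Its log2 differences are plotted, and listed where the processing is compared, only as background readings.

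Among the aspartic cathepsins, cathepsin D is the main endopeptidase of the lysosome and its loss causes a lysosomal storage disease of neurons. The Ctsd probe (A_51_P384629) read 15.28, 15.31 and 15.25 in B41HET and 15.36, 15.48 and 15.29 in B41KO. The groups overlapped at B41KO replicate 3, and the difference was 0.10 (95% interval −0.09 to 0.29, adjusted p = 0.524).

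Cathepsin E, an aspartic protease of endosomes, was near background. Its probe (A_55_P2714921) read 2.71, 3.10 and 3.51 in B41HET, where 2 of 3 arrays were well above background. In B41KO it read 2.20, 2.35 and 2.68, and no array was. The groups were apart by only 0.03. Limma's adjusted p for the difference of the mean signals, 3.11 and 2.41, was 0.154. Set against the lowest signal well above background on the B41KO arrays (mean 2.80), the B41HET mean was at least 1.24-fold brighter, a bound that was not tested. This bound rested on B41HET replicate 3, without which it was 1.07-fold, and normexp background correction of the median signals, with an offset of 50, gave a log2 difference of −0.05.

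**Figure D3:**
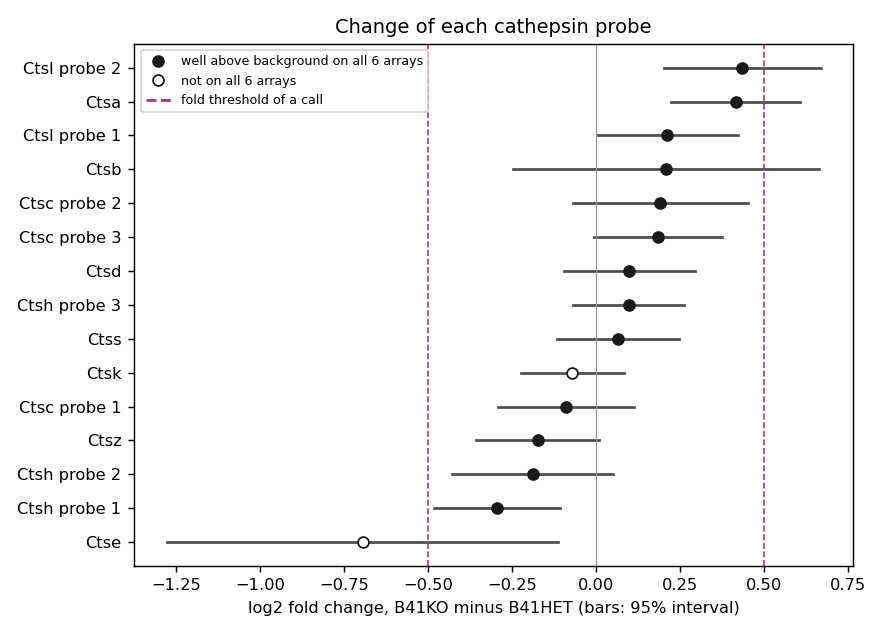
Log2 difference, B41KO minus B41HET, of the 15 cathepsin probes with 95% intervals from limma (3 samples per genotype), with dashed lines at the fold threshold of −0.5 and 0.5. The intervals of Ctsa (0.22 to 0.61), both Ctsl probes, Ctsh probe 1 and Ctse are clear of 0, and no probe is called. The Ctsk and Ctse probes were at or near background.

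The genes around the cathepsins were read on the brightest probe of each gene, on which 5.45% of 23462 genes passed the call (1.44% with a higher and 4.01% with a lower signal in B41KO), with a median log2 difference of 0.01. On this basis 5 of the 10 cathepsins had a higher and 5 a lower value, with a median of −0.002 and none called. Over the 8 that were above background on every array, without Ctse and Ctsk, 5 were higher and 3 lower, with a median of 0.08, and over all 15 probes 9 were higher and 6 lower, with a median of 0.10.

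Of the 13 other cathepsins, 6 were above background on all arrays and 5 on none. Among the 13, 0 were called higher and 1 lower, with a median of −0.002. That was the value of Cts8, which was above background on no array. The one called was Ctsg, which encodes cathepsin G, a serine protease of neutrophil granules. It read 5.72, 5.67 and 5.45 in B41HET and 4.55, 4.59 and 4.80 in B41KO, fully apart. The signal was 1.96-fold lower (log2 difference −0.97, adjusted p = 0.0124). The call held in 3 of the 6 analyses without 1 sample, and with normexp on the median signals the difference was −0.35 and below the fold threshold. Several genes of this list, such as Cts3, Cts6, Cts7, Cts8, Ctsj, Ctsm, Ctsq and Ctsr, belong to a placental cluster of close copies. Of these, Cts6 and Ctsm were well above background on every array and Cts3 on 1 B41KO array. Cts7, Cts8, Ctsj, Ctsq and Ctsr were on none.

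Of the 16 cathepsin inhibitors, 0 were called higher and 1 lower, with a median of −0.14. That median includes dim genes, since 10 of the 16 were above background on all arrays and 4 on none. The one called was Serpinb1a, which inhibits neutrophil elastase, proteinase 3 and cathepsin G. It read 7.29, 7.22 and 7.16 in B41HET and 4.98, 4.80 and 4.85 in B41KO. This separation, 5.07-fold lower in B41KO (log2 difference −2.34, adjusted p = 0.000571), was called in each of the 15 alternative analyses run for it, with a smaller log2 difference of −1.26 with normexp. Cst3, the secreted cystatin C that microglia make in large amounts, differed by 0.10 (adjusted p = 0.646), and Cstb, the cytosolic stefin B, by −0.21 (adjusted p = 0.176). Cst7, cystatin F, which inhibits cathepsin C and is known from activated microglia, read 6.43, 6.05 and 6.33 in B41HET and 7.01, 6.99 and 6.66 in B41KO. Its 3 B41KO samples were all higher, by 0.62 on average, with an adjusted p of 0.0717.

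Of the 14 genes of sorting and maturation, 0 were called higher and 1 lower, with a median of 0.07. Nagpa, the enzyme that uncovers the mannose 6-phosphate tag, read 13.23, 13.22 and 13.10 in B41HET and 12.60, 12.62 and 12.52 in B41KO, 1.51-fold lower (adjusted p = 0.0148). Its call was lost in 4 of the 6 analyses that left out 1 sample. Psap, the precursor of the saposins, read 13.43, 13.33 and 13.35 against 13.68, 13.81 and 13.76, a difference of 0.38 that passed the adjusted p (0.0421) and not the fold. Lgmn, the asparaginyl endopeptidase that processes cathepsins B, H and L, differed by −0.15 (adjusted p = 0.292) and M6pr, a mannose 6-phosphate receptor, by −0.34 (adjusted p = 0.257). The 2 dimmer M6pr probes differed by 0.02 and −0.01. Gga3, an adaptor of that receptor, was named after its values were seen, because its probes disagreed, at 0.39 on the brightest (not called) and −0.84 on the other (called lower).

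Of the 11 substrates and partners, 0 were called higher and 3 lower, with a median of −0.04. Cd74, the invariant chain that cathepsin S cleaves, read 13.25, 13.34 and 13.17 in B41HET and 11.73, 11.67 and 11.70 in B41KO, 2.93-fold lower (adjusted p = 0.00144). Prtn3, the granule protease proteinase 3 that cathepsin C activates, read 6.85, 6.52 and 6.61 against 4.78, 4.88 and 4.88, 3.51-fold lower (log2 difference −1.81, adjusted p = 0.00209, and −0.91 with normexp). Ctsg, which stood on this list also, was the remaining call. Elane, neutrophil elastase, another granule protease that cathepsin C activates, differed by −0.04 (adjusted p = 0.917). Ctsg, Prtn3 and Serpinb1a are known from neutrophils and their precursors. Cd74 is known from dendritic cells, B cells and border macrophages, and from microglia too. The marker sums therefore stand beside these 4 genes. The neutrophil sum was given above, the border macrophage sum was 11.21 to 11.33 in B41HET and 10.65 to 10.81 in B41KO, and the dendritic cell sum was 8.51 to 8.71 and 7.86 to 8.00. Most of the border macrophage sum was Stab1 (log2 difference −0.49, not called). The median of the 8 border macrophage markers, 5 of them above background on all arrays, was −1.18. The monocyte sum was 10.41 to 10.50 and 8.50 to 8.60. The B cell sum was 10.28 to 10.48 and 10.38 to 10.41, with 1 of 5 markers called lower. The sort for CD45low CD11b+ Cx3cr1+ cells is meant to keep microglia and to leave out other cells. What part other cells, or a change within microglia, had in these 4 results was not tested. Tlr7, an endosomal receptor that cathepsins trim, was named after its values were seen, since its probes disagreed, at 0.36 on the brightest (not called), 0.53 on another (called higher) and −0.03 on the remaining probe.

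Of the 6 transcription factors of lysosomal and myeloid genes, 0 were called higher and 1 lower, and all 6 had values below 0, with a median of −0.37. The lowest value was that of Tfec, which was above background on no array, and the median of the remaining 5 was −0.35. Tfe3, an MiT/TFE factor, read 9.98, 10.05 and 10.10 in B41HET and 9.37, 9.48 and 9.19 in B41KO, 1.62-fold lower (log2 difference −0.70, adjusted p = 0.0197). Its second probe differed by −0.30 and was not called, and the first was called in 2 of the 6 analyses without 1 sample. Tfeb, the other main activator of lysosomal genes, differed by −0.35 on its brightest probe (adjusted p = 0.138), by −0.33 on another and by −0.56 on the dimmest, which was called lower. Spi1, which encodes PU.1, read 13.11, 12.98 and 13.04 against 12.73, 12.61 and 12.60, a difference of −0.39 that passed the adjusted p (0.0420) and not the fold.

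**Figure D4:**
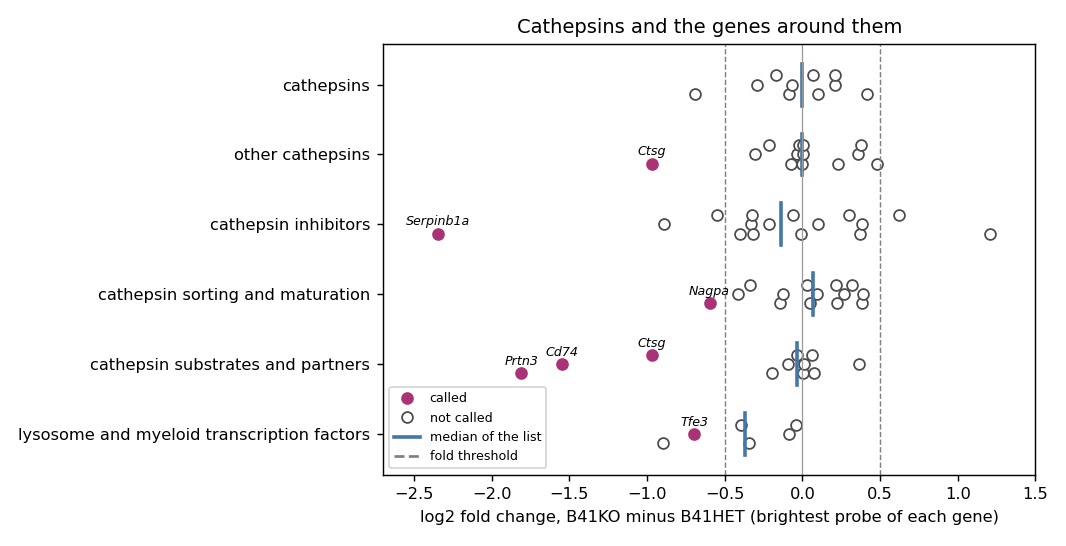
Log2 difference, B41KO minus B41HET, of each gene on its brightest probe for the 10 cathepsins and the 5 lists of genes around them (vertical offsets carry no value, blue bars are list medians, filled points passed the call). No cathepsin of the 10 is called, and the called genes, Ctsg (on 2 lists), Serpinb1a, Nagpa, Prtn3, Cd74 and Tfe3, all lie below −0.5.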

How the data were processed

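RNA of sorted microglia was labelled with Cy3 and hybridised to Agilent 1-colour arrays, 1 per sample. The authors scanned the arrays and deposited the processed signal intensity of each of 62976 spots (Agilent Feature Extraction 11.5.1.1), together with a table of log2 values, quantile normalized per the study's methods, which served here as an alternative. From the intensity values, control spots and outlier-flagged spots (95 to 136 per array) were removed, log2 signals were quantile normalized, and spots of a probe were averaged. Genotypes were compared with limma 3.58.1 in R 4.3.3, 3 samples each, with genotype as the only term and Benjamini-Hochberg adjustment over the 56601 probes with at least 2 samples per genotype. Probes were called at the thresholds of the study's methods, 0.05 for the adjusted p and 0.5 for the size of the log2 difference. Intervals are at 95% and the number of arrays limits their precision.

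Of 56605 probes, 33767 (59.7%) were named through their accession by RefSeq (GRCm38.p6). For gene lists the brightest probe stood for a gene. The genes named are every cathepsin probe, the called genes of each list and 9 genes listed by name whatever their change (Cst3, Cstb, Cst7, Lgmn, Psap, M6pr, Cd74, Tfeb, Spi1). Gga3, Tlr7, Elane, Tfec, Cts3, Cts6, Ctsm, 5 undetected placental cathepsins and some markers were added after their values were seen. The members and lists were chosen with earlier results of these data known. One of the microglia markers is not reported here. A probe counted as measured where the scanner software called it well above background. The alternatives were a 75th-percentile shift, the authors' values, normexp background correction with an offset of 50 of the median in place of the processed signals (called normexp), a filter on dim probes (3 arrays or more above background), no removal of outlier spots, trend and robust variance, blocks for replicate number and for slide row, each sample left out, no fold threshold and the mean over a gene's probes.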

Additional observations from a re-analysis of the deposited data

How the results depend on the processing

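The 0 calls among the cathepsin probes stood in every alternative but the one without a fold threshold, where Ctsa made it 1 of 15. With any 1 sample left out the count was 0 to 0. Ctsa passed the adjusted p with the authors' values, normexp, the filter, outlier spots kept, trend and robust variance and the mean over probes, and missed it with the 75th-percentile shift, with either block and without any 1 sample. Normexp and trend and robust variance also brought Ctsh A_51_P277792 and Ctsl A_51_P253547 past the adjusted p, and the filter brought the latter. Of the single-probe values under the alternatives 218 kept sign and call, and 5 changed sign. Those were Ctsc A_65_P05835 (0.10) and Ctsh A_52_P51078 (−0.13) as means over the gene's probes, and Ctss with normexp (−0.0060). The others were Ctsk with the 75th-percentile shift (0.22) and with normexp (0.015). The Ctsk probe was well above background on no array, so its values are background readings and measure no change.

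Among the lists, normexp on the median signals gave 0 other cathepsins, where 1 was called, and the slide row block gave 0 other cathepsins, 0 sorting genes and 0 transcription factors. The filter and trend and robust variance gave 2 inhibitors in place of 1, Cst7 being added. Without a fold threshold 2 sorting genes and 2 transcription factors were called, and the mean over probes gave 0 transcription factors. Without 1 sample the counts were 0 to 1 other cathepsins, 1 to 1 inhibitors, 0 to 1 sorting genes, 2 to 3 substrates and partners and 0 to 1 transcription factors.

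With the replicate number as a block (replicate block) 0 other cathepsins, 0 sorting genes, 0 substrates and 0 transcription factors were called, and 42 of all probes in place of 2867. In the main fit the numbers were not taken to pair the samples. Deviations from the genotype means correlated at 0.13, −0.007 and 0.17 between like numbers and at −0.19 to 0.08 between unlike ones. Of 6 samples 4 correlated best with their own number. These values do not settle whether the samples were paired. All 6 arrays lay on 1 slide, B41HET and B41KO replicate 1 in row 1 and B41KO replicates 2 and 3 in row 2, so the row block rests on 1 B41KO array. In row 1 alone Ctsa differed by 0.47 and Ctsb by 0.56. Over all probes normexp called 1500, the row block 444 and the analyses without 1 sample 792 to 1525. The 75th-percentile shift moved the median of all probes to 0.13, and lower calls from 66.0% to 54.2%. Relative to that median Ctsa differed by 0.29, Ctsl by 0.08 and 0.33, Ctsb by 0.07 and Ctsd by 0.08. On the same basis Ctsz differed by −0.18, Ctsc by −0.18, 0.05 and 0.06, and Ctsh by −0.44, −0.31 and −0.06. Ctss (−0.10) and Ctsh A_52_P51078 thus turned sign. No such value is given for Ctse and Ctsk, which were at or near background.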
